A study of Homo sapiens with 15 samples.

Results

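Aminoacyl-tRNA synthetases are the enzymes that join each amino acid to its tRNA. The 36 genes described here were the rows of the deposited tables named as members of this family, among 60107 genes listed. By name alone, 16 (names ending in 2) were taken as mitochondrial and the other 20 as cytosolic. A gene whose enzyme serves both compartments is counted once, by its name. RNA was sequenced from MIA PaCa-2, a human pancreatic carcinoma cell line, after 24 h with vehicle, or with 5 µM of Lys05, BAQ12, BAQ13 or BAQ12O, in 3 libraries per group. Lys05 is a bisaminoquinoline that accumulates in lysosomes, and BAQ12 and BAQ13 join its pharmacophore to a hydrophobic tail and assemble into nanoparticles (NPs). The tail of BAQ13 is longer than that of BAQ12 by a methylene unit. BAQ12O is known here only by its code name (12O in the design text). All groups share this line, the labels name no allele or transgene in any group, and they do not say whether libraries of a group came from separate cultures. The p-values then measure the spread between these libraries, which may be technical.

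The cytosolic enzymes charge tRNAs for the ribosomes of the cytosol. The 8 genes EPRS, LARS, IARS, MARS, QARS, RARS, KARS and DARS encode the enzymes held in the multisynthetase complex, which the scaffold proteins AIMP1, AIMP2 and EEF1E1 hold together. The mitochondrial enzymes are encoded in the nucleus, are imported, and serve the ribosomes that translate the mitochondrial genome. Several cytosolic synthetase genes are known targets of ATF4, the transcription factor of the integrated stress response. WARS is known in addition as a gene induced by interferon.

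Every value below is a normalised read count, the reads on a gene divided by the size factor of the library. The libraries held 1586566 to 2500551 reads on genes. A gene was tested when it passed a filter on low reads, and 10495 genes did. Of the 36 synthetase genes 35 were tested, all 20 cytosolic and 15 of 16 mitochondrial. AARS2, the mitochondrial alanyl-tRNA synthetase, did not pass, with 2.08 to 9.70 normalised counts over the 15 libraries, where 3 reads correspond to 2.49 to 4.14. Fold changes are differences of log2(normalised count + 1) with their standard error (SE) from limma, and a gene was called at a Benjamini-Hochberg adjusted p under 0.05 over all genes tested. Since sources disagree on whether the kit read whole transcripts or 3′ ends, levels were not compared between genes. BAQ12 replicate 3 stood apart from the other libraries. It held the highest or the lowest value of all 15 libraries for 17 of the 35 synthetase genes (48.6%), and for 43.4% of all genes tested. Values without it are therefore given for the calls against vehicle that it decided. They are also given for some, not all, of the other calls and directions that it turned. With BAQ12, 9 of 20 cytosolic genes were lower than vehicle with all libraries and 12 without it. The line's markers KRT8, KRT18, KRT19 and VIM were present, while the epithelial markers EPCAM and CDH1, the 3 acinar markers, PTPRC, PECAM1 and COL1A1 were at or near 0, with at most 6.28 normalised counts in any library. Of the fibroblast markers COL1A2 was present, at 147.5 to 252 normalised counts, and it fell with BAQ12 (log2 fold change −0.56, adjusted p 0.011) and BAQ13 (−0.54, adjusted p 0.0043). KRT8 and KRT18 fell with BAQ13 (log2 fold change −0.85 and −0.50, adjusted p 3.77e-05 and 0.0026) and with BAQ12O (−0.60 and −0.43, adjusted p 0.0044 and 0.025), and KRT8 also with BAQ12 (−0.58, adjusted p 0.0061). Whether they bear on the synthetase values was not tested.

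Members that carry the letters TGATGNAA within 250 bases before their RefSeq start are shown first, because these letters are the core of the element through which ATF4 acts on many of its targets. Both strands were searched, the reverse complement being TTNCATCA. Of the 36 members 30 matched a RefSeq promoter (GRCh38.p14), and 3 of these held the letters, against 3.14% of all 35116 promoters. DARS, LARS, VARS, YARS, AARS2 and VARS2 were unmatched. Capitals mark the match in the 3 members and, for comparison, in the 3 of 12 matched ATF4 targets that held it. The windows are AARS (chr16:70289675-70289704, minus strand), IARS (chr9:92293698-92293721, minus), YARS2 (chr12:32756076-32756105, minus), ASNS (chr7:97872458-97872487, minus), CHAC1 (chr15:40953251-40953280, plus) and ATF3 (chr1:212565205-212565234, plus).
AARS: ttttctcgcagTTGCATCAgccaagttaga
IARS: ttttcagcgcgTTGCATCAcctcc
YARS2: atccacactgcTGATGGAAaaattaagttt
ASNS: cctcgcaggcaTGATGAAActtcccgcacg
CHAC1: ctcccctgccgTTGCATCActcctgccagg
ATF3: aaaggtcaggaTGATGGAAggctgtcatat
The match begins 187 bases before the start in AARS, 13 in IARS and 197 in YARS2. AARS, IARS and CHAC1 share the same 8 letters. No match was found in this window for WARS or TARS, which says only that these letters are not there.

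The first question was which synthetase transcripts changed with each compound relative to the vehicle group. With BAQ13 NPs, 2 of 20 cytosolic genes rose, AARS and WARS, and none fell. Of all genes tested, 5.77% were called in that comparison, 3.58% higher and 2.19% lower. With BAQ12O 1 of 20 cytosolic genes, TARS, fell, where 1.48% of all genes were called, 0.543% in the lower direction. No synthetase gene was called with Lys05 or BAQ12 NPs, where 0.238% and 0.981% of all genes were. At an unadjusted p under 0.05 the counts were 0 of 35 members with Lys05, 1 with BAQ12, 7 with BAQ13 and 5 with BAQ12O, where 4.98%, 11.8%, 19.4% and 12.8% of all genes passed. For Lys05 and BAQ12, edgeR and DESeq2 on the recovered reads also called no member. None of the 15 mitochondrial genes was called with any compound by limma, edgeR or DESeq2. The mitochondrial genes at an unadjusted p under 0.05 numbered 0, 0, 2 and 1 with Lys05, BAQ12, BAQ13 and BAQ12O.

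AARS, the cytosolic alanyl-tRNA synthetase (chr16:70252295-70289543, minus strand, GENCODE 29 on GRCh38), had 589, 553 and 571 normalised counts in the 3 vehicle libraries. It had 915, 912 and 922 with BAQ13 NPs. The 9 libraries of the other treatments lay far below these, at 592, 626 and 623 with Lys05, 581, 685 and 669 with BAQ12, and 626, 629 and 649 with BAQ12O. The BAQ13 libraries were thus above all 12 others, with a spread among themselves of 4.89 (SD, n = 3) around a mean of 917. The log2 fold change with BAQ13 was 0.68 (SE 0.074, adjusted p 1.04e-05, limma), a fold of 1.61. The call was kept in the 15 fits that left out a library in turn, with adjusted p between 2.37e-08 and 0.000186. For Lys05, BAQ12 and BAQ12O the log2 fold changes were 0.10, 0.17 and 0.15, none called.

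WARS, the cytosolic tryptophanyl-tRNA synthetase (chr14:100333788-100376805, minus strand), had 136, 156 and 145 normalised counts with vehicle. It had 274, 263 and 199 with BAQ13 NPs, 1.67-fold higher (log2 fold change 0.74, SE 0.149, adjusted p 0.0056, limma). BAQ13 replicate 3 was the lowest of its group, and BAQ12 replicate 3, at 209 beside 147 and 165 in its group, lay above it. All BAQ13 libraries exceeded all vehicle, Lys05 and BAQ12O libraries, which spanned 129 to 167. WARS was called in all 15 fits without a library (adjusted p 7.6e-05 to 0.0381). The gene overlaps WDR25 on the opposite strand by 388 bases, and the sources used here do not say whether counting used the strand.

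TARS, the cytosolic threonyl-tRNA synthetase (chr5:33440696-33469539, plus strand), had 509, 534 and 497 normalised counts with vehicle. It had 424, 403 and 409 with BAQ12O, below every one of the 12 other libraries, of which BAQ12 replicate 2 was the lowest at 463. The log2 fold change was −0.32 (SE 0.075, adjusted p 0.042, limma), a fold of 0.80. This call is close to the threshold. It was lost without any 1 of the 12 libraries of vehicle, Lys05, BAQ13 or BAQ12O, with adjusted p of 0.0505 to 0.203, and kept without any 1 of the 3 BAQ12 libraries. DESeq2 gave an adjusted p of 0.0505, and edgeR called the gene.

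**Figure D1:**
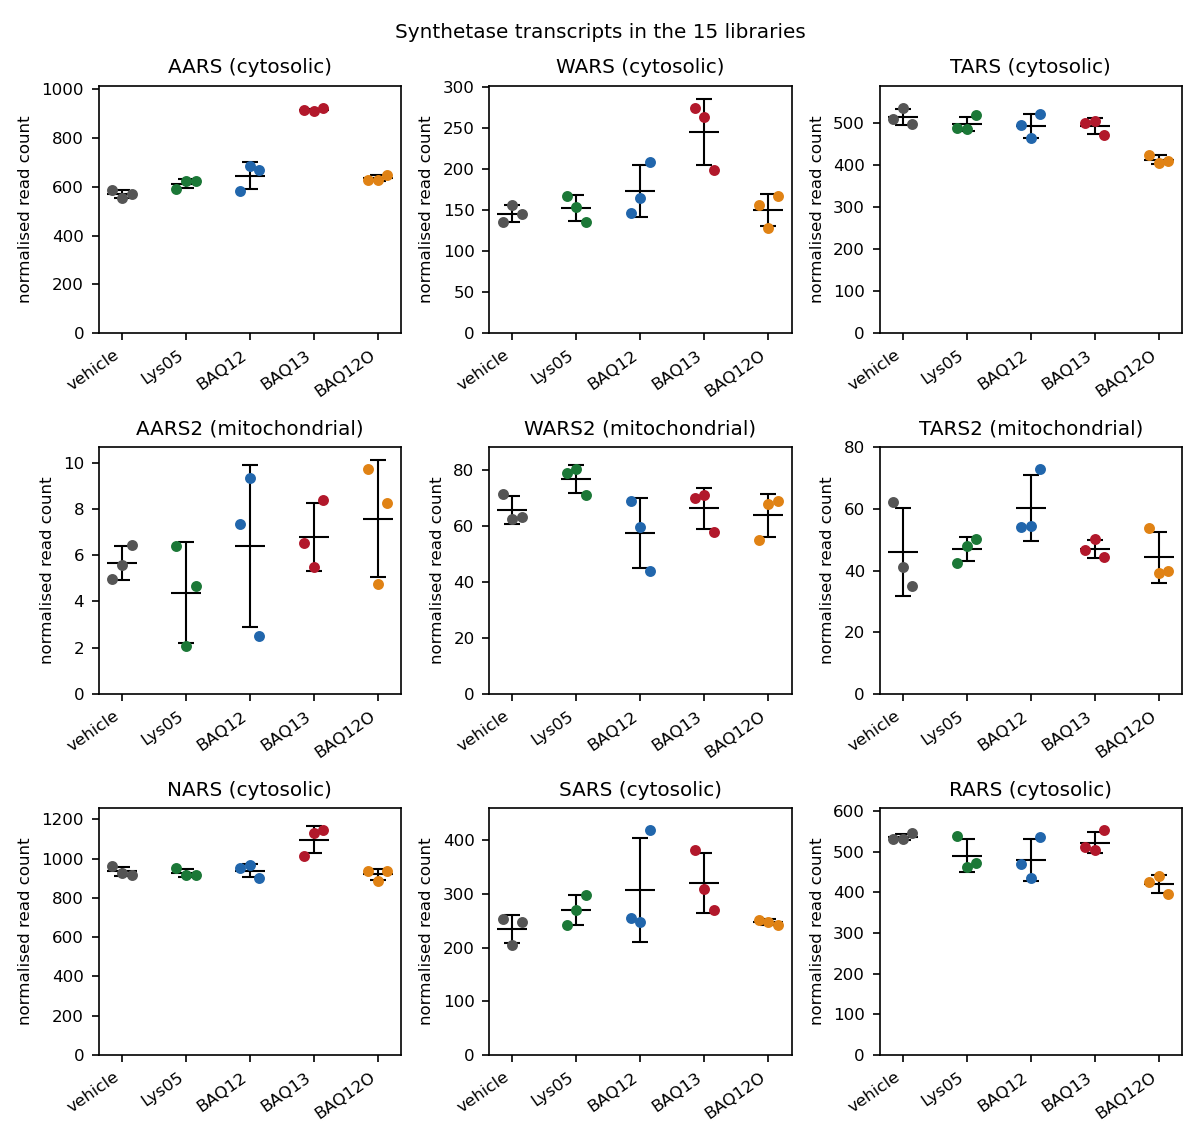
Normalised read counts (y axis, from 0) of 9 synthetase genes in the 15 libraries by group (x axis), with each point a library and each bar the mean ± SD (n = 3). AARS and WARS were highest in the BAQ13 group and TARS and RARS lowest in the BAQ12O group, while the mitochondrial partners AARS2, WARS2 and TARS2 showed groups that overlapped for BAQ13 and BAQ12O against vehicle.

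The mitochondrial partners of the called genes did not pass the test. WARS2 had 71.4, 62.5 and 63.3 normalised counts with vehicle and 70.0, 71.1 and 57.8 with BAQ13 NPs, a log2 fold change of 0.01 with a 95% interval of −0.34 to 0.35. The estimate for WARS, 0.74, lies outside this interval. TARS2 had 62.3, 41.3 and 34.9 with vehicle and 53.9, 39.1 and 40.0 with BAQ12O, a log2 fold change of −0.03 with an interval of −0.45 to 0.39, which includes the value of TARS. AARS2 had 4.98, 5.58 and 6.43 normalised counts with vehicle and 6.53, 5.47 and 8.38 with BAQ13 NPs, too few for a test. The difference between a gene and its partner was not itself tested.

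The members given next were not called with BAQ13 NPs with all libraries, but were called when BAQ12 replicate 3 was left out. NARS (asparagine) had 962, 927 and 915 normalised counts with vehicle and 1015, 1130 and 1143 with BAQ13, without overlap (log2 fold change 0.23, adjusted p 0.063). SARS (serine) had 252, 204 and 247 with vehicle and 382, 309 and 271 with BAQ13 (0.44, adjusted p 0.14), but BAQ12 replicate 3 had more, at 418. FARS2, the mitochondrial phenylalanyl-tRNA synthetase, had 21.6, 24.6 and 24.8 with vehicle and 8.40, 14.6 and 18.4 with BAQ13 (−0.80, adjusted p 0.092). It was the largest decrease of a member in that comparison. KARS (lysine) had 415, 499 and 488 normalised counts against 534, 562 and 557 (−0.24, adjusted p 0.38). FARSB (−0.32, adjusted p 0.28), a subunit of the cytosolic enzyme for the same amino acid, had 120, 129 and 153 against 174, 170 and 158 with vehicle.

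Leaving out BAQ12 replicate 3 narrowed the shared spread, and the number of genes called with BAQ13 NPs went from 5.77% to 13.7% of all tested. Among the synthetase genes it went from 2 to 7. AARS and WARS were joined by NARS (adjusted p 0.0144) and SARS (0.00548), both higher, and by FARSB (0.0471), KARS (0.0344) and FARS2 (0.0408), all lower. The fold changes themselves are the same, since that library is in neither group. FARS2 was also called without BAQ13 replicate 3 (adjusted p 0.0469), and NARS without BAQ13 replicate 1 (0.043). With BAQ12O, RARS (arginine) joined TARS (adjusted p 0.00504), where 4.99% of all genes were called. RARS had 425, 441 and 397 normalised counts with BAQ12O and 532, 532 and 545 with vehicle, a log2 fold change of −0.35 that gave an adjusted p of 0.065 with all libraries.

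**Figure D2:**
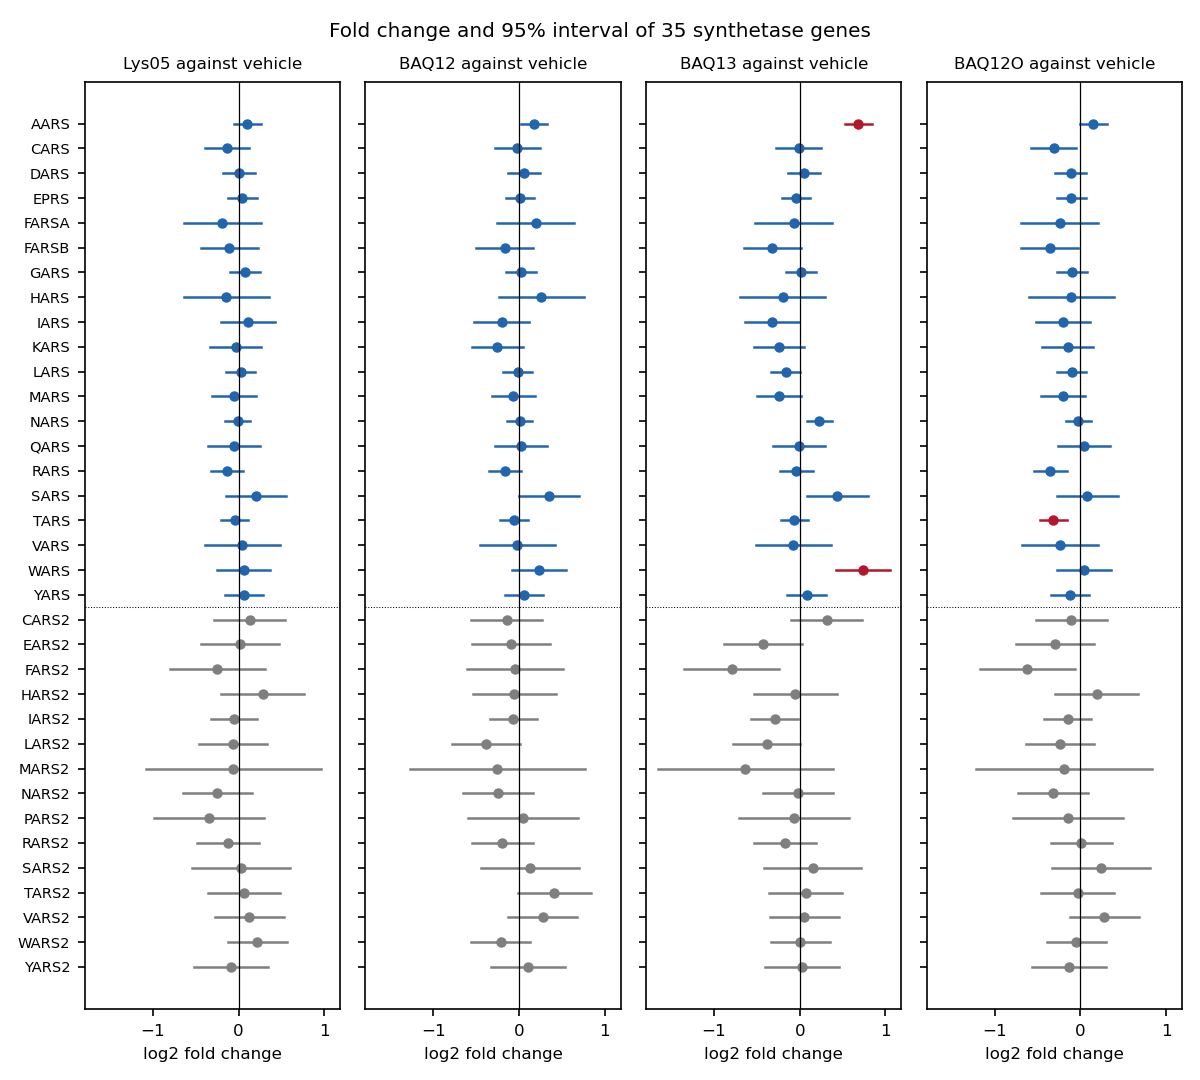
Log2 fold change against vehicle (x axis, points) with its 95% interval (lines) of the 35 synthetase genes tested (y axis), for 4 treatments, with cytosolic genes in blue above the dotted line, mitochondrial genes in grey below it and called genes in red. AARS and WARS with BAQ13 and TARS with BAQ12O are the 3 calls, and MARS2, with at most 10.05 normalised counts, has the widest intervals.

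The remaining members that were extreme in a comparison are given by their values. With Lys05 the largest increases were HARS2 (histidine, log2 fold change 0.28) and WARS2 (0.22), and the largest decreases PARS2 (proline, −0.34) and NARS2 (−0.25), all with adjusted p of 0.999. WARS2 had 78.8, 80.2 and 70.9 normalised counts with Lys05, and its lowest library lay just under the highest of vehicle. HARS2 had 34.1, 53.1 and 34.5 with Lys05 and 29.9, 38.0 and 30.3 with vehicle, so that replicate 2 alone lay above every vehicle library. PARS2 and NARS2 also overlapped between the groups, at 18.1, 10.4 and 11.2 against 21.6, 13.4 and 15.6 for PARS2 and 34.1, 34.4 and 35.5 against 51.5, 39.1 and 34.9 for NARS2.

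With BAQ12 NPs, TARS2 (0.41, adjusted p 0.44) and SARS (0.35, adjusted p 0.43) were the largest increases and LARS2 (leucine, −0.39, adjusted p 0.43) and KARS (lysine, −0.26, adjusted p 0.47) the largest decreases. TARS2 had 54.1, 54.4 and 72.9 normalised counts (log2 fold change 0.27 without BAQ12 replicate 3), and LARS2 had 32.1, 40.0 and 27.6 where vehicle had 35.7, 50.2 and 44.98. Replicate 3 decided SARS and KARS. SARS had 256, 247 and 418 in the 3 BAQ12 libraries, and without replicate 3 its log2 fold change was 0.11. KARS had 548, 536 and 333, and without replicate 3 its log2 fold change was −0.02.

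With BAQ13 NPs, MARS2 (methionine) was the second largest decrease, at 2.80, 9.11 and 3.35 normalised counts against 9.13, 10.05 and 4.59 with vehicle. These values are only a few reads, and the fold change of −0.63 had a 95% interval of −1.66 to 0.39. With BAQ12O, the largest increases were VARS2 (valine, 47.4, 47.7 and 41.4 against 39.9, 39.1 and 33.0, 0.28, adjusted p 0.58) and SARS2 (35.6, 33.4 and 38.6 against 28.2, 42.4 and 22.9, 0.24, adjusted p 0.77). The largest decreases were FARS2 (17.2, 14.3 and 13.8, −0.62, adjusted p 0.33) and FARSB (130, 146 and 116, −0.36, adjusted p 0.34). FARS2 and FARSB lay below all vehicle libraries with BAQ13 and with BAQ12O, 2 comparisons that share the vehicle libraries. Of the 10495 genes tested, 1507 with BAQ13 and 1397 with BAQ12O were below in this way.

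The second question was whether the cytosolic and mitochondrial classes moved as groups. The median log2 fold change of the 20 cytosolic genes was −0.003 with Lys05, 0.008 with BAQ12, −0.04 with BAQ13 and −0.12 with BAQ12O. That of the 15 mitochondrial genes was −0.05, −0.07, −0.05 and −0.13, and that of all genes tested lay between −0.004 and 0.002. The mitochondrial medians changed sign when single libraries were left out. Without vehicle replicate 1 they were 0.06 with Lys05 and 0.07 with BAQ13, and without BAQ12 replicate 3 the one with BAQ12 was 0.03. The cytosolic medians with Lys05 and BAQ12 also ranged across 0, from −0.03 to 0.02 and from −0.02 to 0.03. With BAQ12O, 16 of 20 cytosolic and 11 of 15 mitochondrial genes were lower than vehicle by point estimate, where 50.5% of all genes tested were. In 8 of the 20 cytosolic genes, CARS, EPRS, FARSB, KARS, LARS, RARS, TARS and YARS, every BAQ12O library was below every vehicle library, and 1, AARS, had every library above. Over all genes tested 13.3% were below and 12.5% above in this way. Of the mitochondrial genes only FARS2 was below and VARS2 above. The mean log2(normalised count + 1) of the cytosolic genes was 8.04, 8.03 and 7.92 in the BAQ12O libraries and 8.16, 8.11 and 8.12 in the vehicle libraries. All 3 were the lowest of the 15 libraries, with the others at 8.08 or more.

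Scaling by TMM or upper-quartile factors also gave 16 of 20 cytosolic genes lower, with medians of −0.12 and −0.11. With BAQ12O the mitochondrial class had a median of −0.13, near the cytosolic −0.12, but its library means overlapped those of vehicle. The vehicle libraries spread more in this class (SD 0.107, against 0.028 for the cytosolic mean). The mitochondrial mean was 5.41, 5.23 and 5.18 with BAQ12O and 5.48, 5.39 and 5.26 with vehicle. Without vehicle replicate 1 the mitochondrial median was 0.01, with 7 of 15 genes lower. With BAQ13 NPs the cytosolic mean was 8.15 ± 0.07 and the mitochondrial mean 5.23 ± 0.08 (SD, n = 3), against 8.13 ± 0.03 and 5.38 ± 0.11 with vehicle. The difference between the class means was 3.06, 2.85 and 2.86 with BAQ13 and 2.69, 2.72 and 2.86 with vehicle, which overlap.

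**Figure D3:**
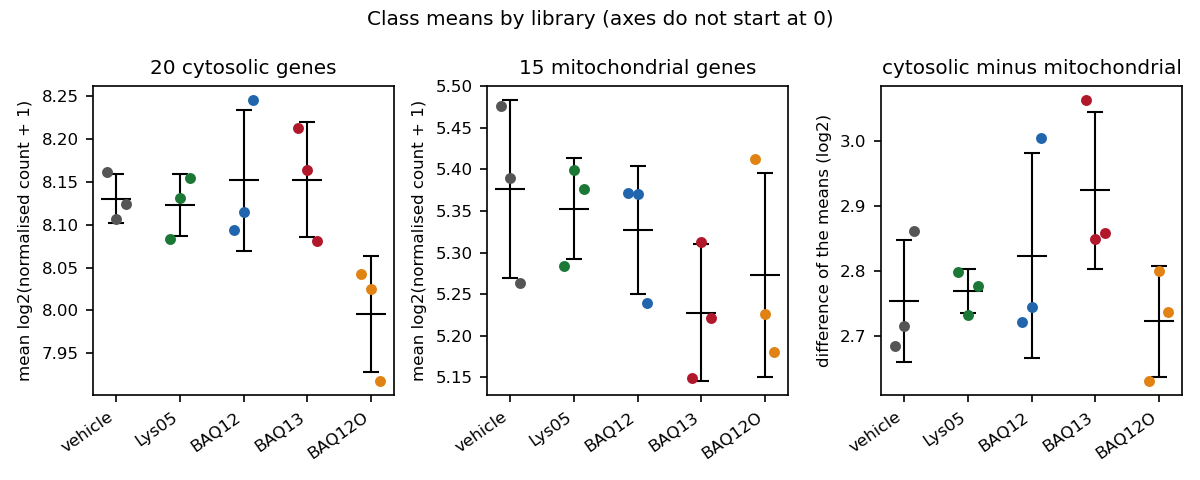
Mean log2(normalised count + 1) of the 20 cytosolic and the 15 mitochondrial synthetase genes tested and their difference (y axes, not from 0) in each library by group (x axis), with bars for the mean ± SD (n = 3). The cytosolic mean of the 3 BAQ12O libraries, 7.92 to 8.04, lies below the 12 others.

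Within the cytosolic class, the genes of the multisynthetase complex and the others numbered 0 of 8 and 2 of 12 called with BAQ13 NPs, and 0 of 8 and 1 of 12 with BAQ12O, a difference that was not tested. By point estimate 7 of the 8 complex genes were lower with BAQ13 and 7 with BAQ12O, with medians of −0.10 and −0.13. Of the 12 others 6 and 9 were lower, with medians of 0.004 and −0.11. Of all 10495 genes tested 5300 and 5305 were lower. The largest change among the complex genes was −0.35, that of RARS with BAQ12O. In IARS the change was −0.32 with BAQ13 (78.4, 86.6 and 75.4 against 84.7, 113 and 106 normalised counts, adjusted p 0.25). IARS carries the same 8 letters upstream as AARS and YARS2 carries a match too (0.03 with BAQ13, adjusted p 0.96), and neither was called. A 95% interval within 1.5-fold in both directions was reached by 8, 8, 7 and 8 of the 8 complex genes with Lys05, BAQ12, BAQ13 and BAQ12O. Over the 20 cytosolic genes the counts were 18, 17, 14 and 16, over the 15 mitochondrial genes 9, 7, 8 and 6, and over all genes tested 52.1%, 44.2%, 40.8% and 45.2%. The mitochondrial genes had fewer reads and wider intervals, with a median half-width of 0.43 on the log2 scale against 0.26 for the cytosolic genes.

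Partners for the same amino acid were set side by side in 16 pairs, in which FARS2 stands against both FARSA and FARSB. DARS, GARS, KARS and QARS have no partner among the members and are in no pair. The cytosolic fold change was above the mitochondrial one in 10, 10, 11 and 8 of the 16 pairs with Lys05, BAQ12, BAQ13 and BAQ12O. These tallies rested on single libraries, the one with BAQ12 being 6 of 16 without BAQ12 replicate 3 and the one with Lys05 7 of 16 without vehicle replicate 1 or vehicle replicate 2, while the one with BAQ12O was 5 of 16 without vehicle replicate 1. The widest gap with BAQ13 NPs was that of WARS and WARS2, 0.73 on the log2 scale, followed by FARSA and FARS2 at 0.72. In the latter pair the gap came from the lower mitochondrial value, since FARSA had a log2 fold change of −0.07. The HARS and HARS2 genes lie head to head on chromosome 5 with annotated spans that overlap, so reads could be shared between them if counting ignored the strand. Their log2 fold changes were −0.14 and 0.28 with Lys05, 0.26 and −0.06 with BAQ12 (0.01 and 0.13 without BAQ12 replicate 3), −0.20 and −0.05 with BAQ13, and −0.10 and 0.19 with BAQ12O. None of the 8 passed the test.

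**Figure D4:**
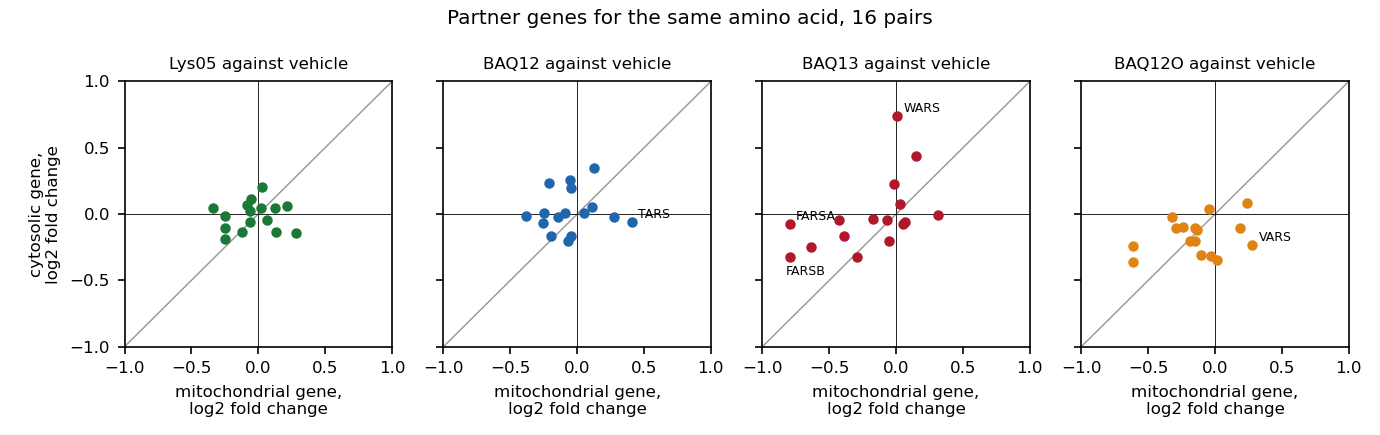
Log2 fold change against vehicle of the cytosolic gene (y axis) and of the mitochondrial gene (x axis) for 16 pairs that serve the same amino acid, for 4 treatments, with the diagonal marking equal change and names given where the 2 differ by 0.45 or more. With BAQ13, WARS lies at 0.74 while WARS2 is at 0.01.

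The compounds were also compared with each other at the same dose and time, in 6 pairs, each adjusted over all genes tested. AARS was higher with BAQ13 NPs than with Lys05 (log2 fold change 0.58, SE 0.074, adjusted p 0.000123) and than with BAQ12 NPs (0.51, SE 0.074, adjusted p 0.00164), and lower with BAQ12O than with BAQ13 (−0.53, SE 0.074, adjusted p 0.00055). The share of all genes called was 2.66%, 0.562% and 1.39% in these comparisons. When only the 6 libraries compared were fitted, the difference of AARS between BAQ13 and BAQ12 was not called (adjusted p 0.257). WARS was higher with BAQ13 than with Lys05 (0.68, SE 0.149, adjusted p 0.0167) and lower with BAQ12O than with BAQ13 (−0.70, adjusted p 0.0235).

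These calls for WARS were less stable than those for AARS. The first was lost without Lys05 replicate 2 or 3 (adjusted p 0.0623 and 0.104) or BAQ13 replicate 1 or 2 (0.095 and 0.0994). The second was lost without BAQ13 replicate 1 or 2 (0.113 and 0.139) or BAQ12O replicate 1 or 2 (0.0697 and 0.157). Between BAQ13 and BAQ12, which differ by the methylene unit, WARS differed by 0.50 with a 95% interval of 0.19 to 0.82 and an adjusted p of 0.21. Without BAQ12 replicate 3 the difference was 0.64 and was called (adjusted p 0.00676), as was CARS2, the mitochondrial cysteinyl-tRNA synthetase, at 0.72 (adjusted p 0.0259), where 3.16% of all genes were. CARS2 had 56.9, 49.2 and 55.3 normalised counts with BAQ13 and 31.2, 33.2 and 56.5 with BAQ12, the last value being that of replicate 3.

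TARS was lower with BAQ12O than with each of the other compounds, without overlap of the libraries. The log2 differences were −0.27 from Lys05 (adjusted p 0.25), −0.26 from BAQ12 (0.32) and −0.25 from BAQ13 (0.14), none called with all libraries, and the last was called without BAQ12 replicate 3 (adjusted p 0.037), where 3.69% of all genes were. Among Lys05, BAQ12 and BAQ13, TARS hardly varied, with a difference between BAQ13 and BAQ12 of −0.002 and an interval of −0.16 to 0.16. No synthetase gene was called between BAQ12 and Lys05, BAQ12O and Lys05, or BAQ12O and BAQ12, where 0.162%, 0.248% and 0.229% of all genes were. At an unadjusted p under 0.05 the counts were 2, 3 and 4 of 35 members, against 7.17%, 7.36% and 8.38% of all genes. edgeR and DESeq2 also called none in these pairs. These counts do not show that the compounds act alike, and the interval stayed within 1.5-fold in 22, 26 and 23 of the 35 genes, and in 47.1%, 49% and 48.2% of all genes.

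The genes that act around the synthetases were counted in the same fit. None of the 3 scaffold genes of the complex was called. AIMP1 had log2 fold changes of 0.17, −0.07, −0.01 and 0.09 with Lys05, BAQ12, BAQ13 and BAQ12O. AIMP2 had −0.13, −0.28, −0.21 and −0.37, and EEF1E1 −0.22, −0.33, −0.34 and −0.22. AIMP2 was lowest with BAQ12O, at 85.2, 78.2 and 81.3 normalised counts against 105, 103 and 109 with vehicle (adjusted p 0.20). Nor was any gene called with any compound among 4 of mitochondrial amidation and formylation, 3 editing factors, 6 cytosolic and 4 mitochondrial elongation factors, 3 of tRNA end processing and export, and 2 of 3 selenocysteine genes tested. At an unadjusted p under 0.05 the most in any of these lists were 2 genes, of the 6 cytosolic elongation factors with BAQ12 and with BAQ13 and of the 4 mitochondrial ones with BAQ13, where 11.8% of all genes passed with BAQ12 and 19.4% with BAQ13.

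Of 14 ATF4 targets 11 were tested, and 3 of them rose with BAQ13 NPs, where 3.58% of all genes were called higher. None was called with the other compounds. An unadjusted p under 0.05 (limma) was reached by 1, 6, 5 and 6 of the 11 with Lys05, BAQ12, BAQ13 and BAQ12O. Of all genes 4.98%, 11.8%, 19.4% and 12.8% reached it. The changes went both ways, from −1.37 to 0.57 on the log2 scale with BAQ12 and from −1.13 to 0.80 with BAQ12O. With BAQ12 5 of the 11 were higher and 6 lower, and with BAQ12O 3 and 8. By point estimate 6 of the 11 were higher and 5 lower with BAQ13. The largest decrease was that of PSAT1, an enzyme of serine synthesis, at 140, 211 and 275 normalised counts against 281, 298 and 316 with vehicle (log2 fold change −0.57, adjusted p 0.40). DDIT3, a proapoptotic stress factor, had 105, 60.2 and 65.4 normalised counts against 34.9, 34.6 and 37.6 with vehicle (log2 fold change 1.04, adjusted p 0.0053), and with BAQ12O its log2 fold change was 0.80 (adjusted p 0.072). TRIB3, a pseudokinase induced by stress, had 36.4, 31.9 and 51.1 against 23.2, 16.7 and 22.9 (0.88, adjusted p 0.035), and CEBPB had 222, 250 and 232 against 152, 144 and 141 (0.68, adjusted p 0.00032). ASNS, the asparagine synthetase, has an upstream match in other letters than AARS. It had 113, 102 and 87.2 against 119, 115 and 120 (−0.23, adjusted p 0.31), in the opposite direction to AARS. CHAC1, with the same 8 letters as AARS, had 19.6, 22.8 and 26.8 normalised counts against 24.1, 21.2 and 27.5 with vehicle and was not called. ATF4 itself had 1651, 1397 and 1299 against 1133, 1239 and 1136 (0.30, adjusted p 0.23). DDIT3 lies on the strand opposite to MARS and overlaps it by a short stretch at the 3′ ends of both genes. MARS had 149, 130 and 177 normalised counts with BAQ13 and 200, 162 and 177 with vehicle (−0.24, adjusted p 0.29), so its estimate lay in the direction opposite to that of DDIT3.

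Within-group spread limited what could be called. The members' values in BAQ12 replicate 3 differed from the mean of replicates 1 and 2 by up to −1.55 (MARS2) and 0.80 (CARS2) on the log2 scale, among them FARSA (246 normalised counts against 153 and 158), HARS (95.5 against 55.9 and 57.8) and FARSB (108 against 172 and 177). Over the 35 genes these differences correlated with those between BAQ13 replicates 1 and 3 (Pearson r 0.54, and 0.58 over all genes tested), a description across genes, which are not independent replicates. The deviation of BAQ12 replicate 3 from its group mean also correlated with the GC content of the longest transcript (r 0.40 over the members, 0.27 over 10449 genes). This was not particular to that library. The 2 values were 0.27 and 0.21 in BAQ13 replicate 1, −0.31 and −0.26 in BAQ13 replicate 3, and −0.41 and −0.23 in BAQ12 replicate 1. Deviations from the mean of the same group are not independent. Over all genes r lay between −0.11 and 0.12 in the vehicle, Lys05 and BAQ12O libraries. After a correction of every library for GC content, AARS and WARS were still called with BAQ13, NARS was added (adjusted p 0.0213), and TARS with BAQ12O was not called (adjusted p 0.134). The labels name no batch that these libraries share.

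**Figure D5:**
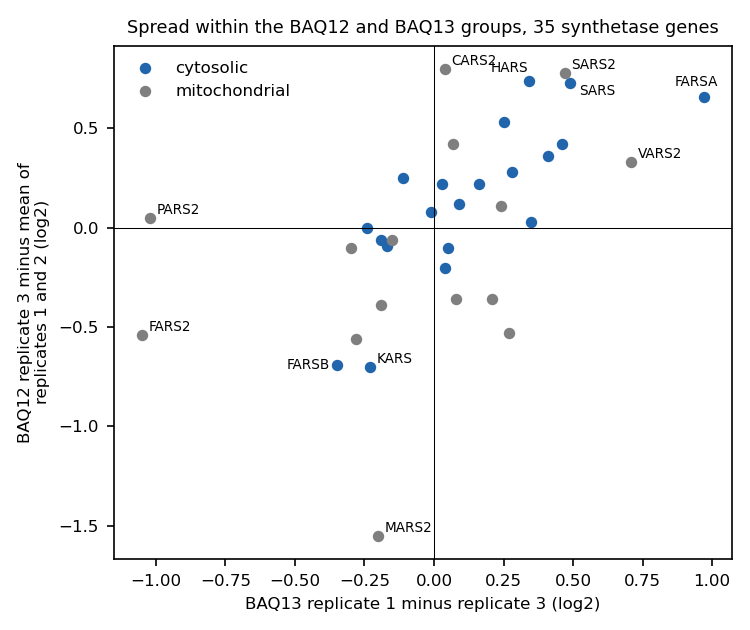
Difference of BAQ12 replicate 3 from the mean of BAQ12 replicates 1 and 2 (y axis, log2) against the difference of BAQ13 replicate 1 from replicate 3 (x axis, log2) for the 35 synthetase genes tested. FARSA, SARS, SARS2 and HARS are high on both axes and FARS2, FARSB and KARS low on both, with r 0.54 over the 35 genes.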

How the data were processed

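The authors deposited a normalised signal for each gene, in which reads were scaled by a size factor for every library. STAR, HTSeq, DESeq2 and GRCh38 (hg38) are named in the submitters' processing notes without versions, and the annotation release is not given in the sources used here. The labels name a 3′ mRNA kit and the study's methods a stranded paired-end kit. Dividing a library by its smallest non-zero value returned whole reads for 100% of values (tolerance 0.001). Depth was 1586566 to 2500551 reads, and intervals cover the spread between libraries only.

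Groups came from the labels. limma 3.58.1 (R 4.3.3, eBayes with trend) was fitted to log2(value + 1) of all 15 libraries for 10495 genes kept by filterByExpr (minimum count 10, total 15). The alternatives were edgeR 4.0.16, DESeq2 1.42.0, other scalings, pseudocounts and filters, array weights, a replicate block, the study's threshold and leaving out each library. Scripts were tested on simulated data. Members and lists were chosen with earlier results of these data known. Values are given in full for members called against vehicle, their partners and the 2 largest increases and decreases per treatment, and for some others (NARS, RARS, IARS, MARS, PSAT1 and those joining without BAQ12 replicate 3) chosen after their values were seen.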

Additional observations from a re-analysis of the deposited data

How the results depend on the processing

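Most counts of synthetase genes called moved with array weights, which gave BAQ12 replicate 3 a weight of 0.125. The cytosolic counts against vehicle were then 2 with BAQ12, 7 with BAQ13 and 3 with BAQ12O, the mitochondrial count with BAQ13 was 3, and the counts between compounds were 7 (BAQ13 against Lys05), 1 (BAQ12O against Lys05), 12 (BAQ13 against BAQ12), 2 (BAQ12O against BAQ12) and 7 (BAQ12O against BAQ13). Calls rose over all genes with these weights, to 5.96%, 22.2% and 6.67% with BAQ12, BAQ13 and BAQ12O and to 14%, 1.12%, 17.2%, 4.45% and 8.65% in the pairs just named. By the study's threshold of a fold of at least 2 and an unadjusted p of at most 0.05 the cytosolic counts with BAQ13 and BAQ12O and those of BAQ13 against Lys05, BAQ13 against BAQ12 and BAQ12O against BAQ13 were all 0. The cytosolic count with BAQ12O was 0 by DESeq2, without a filter, and after a GC correction, which was chosen after seeing the data. With only the 6 libraries compared it was 4, where 8.3% of all genes were called, while BAQ12O against Lys05 gave 1 and BAQ13 against BAQ12 gave 0.

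Same-numbered libraries did not deviate together (r −0.49 to 0.2 over 30 pairs, and 4 of 15 libraries correlated best with their own number). No pairing by number was thus seen. The outlying BAQ12 replicate 3 enters these correlations, so a weak pairing could have been missed. With the replicate block the cytosolic count with BAQ12O was 0 and that of BAQ12O against BAQ13 was 1, also when joined to the GC correction. The block alone changed no other count, and with the GC correction, alone or joined to the block, the cytosolic count with BAQ13 was 3, NARS being added.

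Leaving out 1 library at a time gave 2 to 6 cytosolic and 0 to 1 mitochondrial genes with BAQ13, 0 to 2 cytosolic genes with BAQ12O, and 1 to 3, 1 to 3 and 1 to 5 for BAQ13 against Lys05, BAQ13 against BAQ12 and BAQ12O against BAQ13. The other counts stayed at 0. Leaving out BAQ12 replicate 3 gave the highest count in each, for the mitochondrial genes together with BAQ13 replicate 3. The share of all genes called in these fits ran from 3.05% to 13.7% with BAQ13 and from 0.715% to 4.99% with BAQ12O. It ran from 1.47% to 7.76% for BAQ13 against Lys05, 0.305% to 3.16% for BAQ13 against BAQ12, and 0.686% to 3.69% for BAQ12O against BAQ13. The called genes and the 2 largest increases and decreases per treatment kept their direction in each alternative run, while some other members, such as HARS2 with BAQ12, did not. Low read counts limit the mitochondrial genes most, with AARS2 untested. The cause of these changes was not tested.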

Other observations

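TARSL2, a synthetase family gene outside the list above, was also measured. With 6.89 to 18.1 normalised counts over the 15 libraries, it had log2 fold changes of 0.19 with BAQ13 and 0.15 with BAQ12O (adjusted p 0.82 and 0.91, limma), so neither was called.

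Since WARS is known as a gene induced by interferon, some genes of that response were looked up after its values were seen. IRF1, a transcription factor of the response, had 47.6, 51.0 and 43.6 normalised counts with BAQ13 NPs and 26.6, 23.4 and 21.1 with vehicle (log2 fold change 0.97, adjusted p 0.011, limma). GBP2 (0.29), IFIT1 (0.32) and TAP1 (0.18) were not called with BAQ13. Lys05, BAQ12 and BAQ12O gave IRF1 values of 16.8 to 34.5, none called.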
